A study of Mus musculus with 8 samples.

Results

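The genes described here encode nuclear subunits of respiratory complex III (ubiquinol-cytochrome c reductase), complex IV (cytochrome c oxidase) and the mitochondrial ATP synthase. They were chosen by symbol, as the rows whose gene symbol starts with Uqcr, Atp5 or Cox followed by 4, 5, 6, 7 or 8. Of 25124 genes in the table, 43 had such a symbol, and 39 of these had a mean of at least 0.5 FPKM (fragments scaled to transcript length and library size) over the 8 libraries: 8 of complex III, 14 of complex IV and 17 of the ATP synthase. The remaining 4 were isoforms of complex IV, Cox4i2 with a mean of 0.177 FPKM and Cox7b2, Cox8b and Cox8c with 0 reads in every library, a count that allows up to 3 reads in each. Nearest to the threshold inside it were Cox6b2 and Cox6a2, with means of 0.810 and 0.969 FPKM. The filter used the level over all groups and not a difference between them.

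RNA was sequenced from bone marrow osteoclast precursor (OCP) cells, macrophage-like cells grown out with M-CSF, in a design that crossed recombinant PRDX1 with RANKL, the cytokine that drives osteoclast formation, to ask how extracellular PRDX1 changes the response to RANKL. The 4 groups were no PRDX1 + no RANKL (called control), PRDX1 + no RANKL (PRDX1 alone), no PRDX1 + RANKL (RANKL alone) and PRDX1 + RANKL (both), with 2 libraries in each. Cells of every group, the control included, received 30 ng/mL M-CSF, and where given RANKL was at 100 ng/mL and PRDX1 at 200 nM, for 48 h. The labels give C57BL/6 mice of 6 to 8 weeks. The methods of the study describe OCP cells from male ICR mice and elsewhere name both C57BL/6J and ICR backgrounds. PRDX1 was a His-tagged protein made in bacteria from which endotoxin had been removed. Nothing in the labels says that the 2 libraries of a group came from separate animals or cultures, so p-values measure the spread between these libraries, which may be technical.

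Complex III takes electrons from ubiquinol and passes them to cytochrome c, complex IV passes them on to oxygen, and both pump protons across the inner mitochondrial membrane. The ATP synthase lets the protons flow back through a rotor and makes ATP in its F1 head. Osteoclasts are rich in mitochondria, and oxidative phosphorylation is known to increase as their precursors differentiate. The subunits that mitochondrial DNA encodes, such as cytochrome b and the catalytic core of complex IV, carry other symbols and are not among these genes.

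Libraries held 24542578 to 41712958 reads on genes, and members other than the 3 with the lowest levels had at least 1063 reads in every library. Markers of macrophages summed to 15718 to 17485 FPKM in the control libraries and 9857 to 10278 with RANKL alone, and osteoclast markers to 44.8 to 45.4 and 1884 to 1987 FPKM, respectively. With PRDX1 alone the macrophage sum was 16547 to 17009 FPKM and the osteoclast sum 88.1 to 92.4. Of 9 osteoclast markers, 3 were then called higher than control (3.8% of all genes) and 1 lower (1.99%). With both treatments the osteoclast sum was 251 to 259 FPKM and the macrophage sum 13421 to 13821. All 9 osteoclast markers tested were called higher with RANKL (11.8% of all genes) and lower with PRDX1 under RANKL (4.17%). Among them, Oscar stood at 0 to 0.341 FPKM in every group but RANKL alone. It passed the filter only through that group, so its calls are no support. Of 8 macrophage markers, 6 were called lower with RANKL (9.96% of all genes) and 4 higher with PRDX1 under RANKL (6.03%). Neutrophil markers stood at 7.38 to 11.5 FPKM in control, 37.9 to 41.5 with PRDX1 alone, 15.3 to 15.7 with RANKL alone and 32.9 to 35.5 with both, stromal markers at 7.26 to 9.96, 15.8 to 16.0, 7.13 to 8.87 and 14.9 to 18.4, and dendritic cell markers at 5.86 to 6.02, 15.4 to 15.8, 9.41 to 10.2 and 18.0 to 19.4. B cell and T cell markers were at or below 1.28 FPKM. These sums moved with the groups, and their part in the results was not tested. In bulk RNA, a change in the share of a cell type and a change in RNA per cell cannot be told apart.

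The 39 genes together stood highest with RANKL alone, and near the control level when PRDX1 was given with RANKL. Their summed FPKM was 6283 and 6236 in the control libraries, 5563 and 5627 with PRDX1 alone, 9081 and 9170 with RANKL alone, and 6355 and 6300 with both. As a share of reads on genes they took 0.592% ± 0.000196 in control, 0.522% ± 0.000414 with PRDX1 alone, 0.893% ± 0.00389 with RANKL alone and 0.610% ± 0.00597 with both (SD, n = 2). The libraries with RANKL alone lay above all others in each of the 3 complexes. The sums were 1248 ± 0.334 FPKM for complex III, 3201 ± 57.9 for complex IV and 4677 ± 5.59 for the ATP synthase with RANKL alone, against 788 ± 8.29, 2271 ± 27.8 and 3201 ± 13.3 in control, and 776 ± 15.8, 2327 ± 9.92 and 3225 ± 13.4 with both (SD, n = 2). A permutation test of 2 libraries against 2 cannot go below p = 0.333, and no test was run on these sums.

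**Figure D1:**
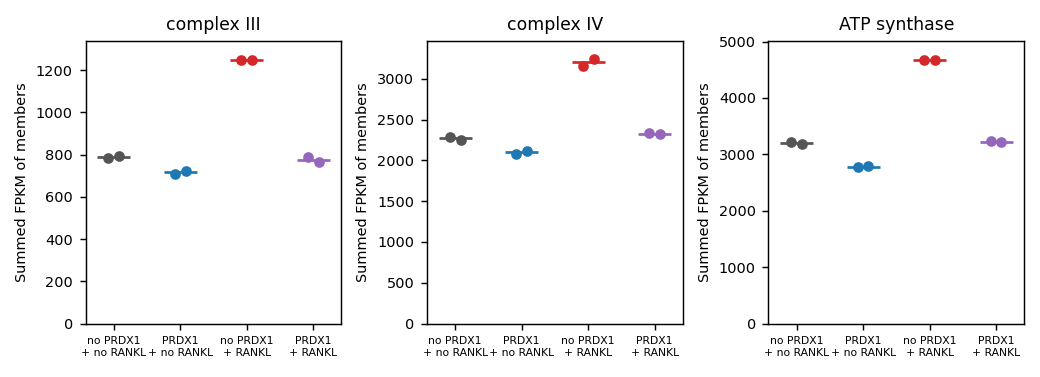
Summed FPKM of the members of complex III, complex IV and the ATP synthase (vertical axes, from 0) in the 4 groups; points are the 2 libraries of a group and lines their mean. In each panel the libraries with RANKL alone stand highest, and those with both treatments lie close to the control libraries.

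The question of the first comparison was what RANKL did without PRDX1. All 39 members were higher with RANKL, both libraries of RANKL alone lay above both control libraries for each of the 39, and the median log2 fold change on the log2(FPKM + 1) scale was 0.55, with a range of 0.28 to 1.003. Over all 11700 genes tested, the median was 0.10, 47.7% lay wholly above control and 30.2% wholly below it. Counting as called a gene whose limma adjusted p was under 0.05 and whose change reached 1.5-fold, 16 of the 39 rose, where 11.8% of all genes did. With no fold threshold 39 passed, against 37% of all genes. By mean FPKM the members other than Cox7a1, Cox6a2 and Cox6b2 ranked 93 to 1311 of the 11700 genes tested. The shares and medians over all genes, here and below, are not matched for level, and adding 1 FPKM understates the change of low genes. By complex, 6 of 8 members of complex III, 4 of 14 of complex IV and 6 of 17 of the ATP synthase were called, and the medians were 0.67, 0.50 and 0.51. Of these calls, Cox7a1 was lost without no PRDX1 + no RANKL replicate 1, Cox7a2l and Uqcrh without no PRDX1 + no RANKL replicate 2, Atp5l, Atp5o, Cox7a1 and Cox7a2l without no PRDX1 + RANKL replicate 1, and Cox5b without no PRDX1 + RANKL replicate 2. Quantile normalization and upper quartile scaling left 9 calls each. Atp5l, Atp5o, Cox5b, Cox7a1, Cox7a2l and Uqcrc1 were lost in both, Atp5b in the first and Uqcrh in the second. With the transcript length trend removed 5 were left, Uqcrfs1, Uqcrc2, Cox5a, Atp5g1 and Atp5b. The share of all genes called was not taken under these alternatives.

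In the presence of RANKL, PRDX1 lowered most of these genes. Of the 39, 38 were lower with PRDX1 + RANKL than with RANKL alone, with both libraries below both of the other group for each of the 38, where 43.1% of all genes showed that separation, and 1 lay wholly above (27.9% of all genes). The median log2 fold change was -0.51, against -0.06 over all genes. The called genes were 13 lower, where 4.17% of all genes were called lower, and 1 higher, Cox6a2, where 6.03% were called higher. At any fold, 38 members fell with a limma adjusted p under 0.05, against 25.6% of all genes. Complex III held 6 of the 13 (median -0.72), the ATP synthase 6 (median -0.52) and complex IV 1 (median -0.46). This comparison shares its libraries with RANKL alone with the one above. With quantile normalization, or with scaling to the upper quartile, 9 calls were left, those of Atp5a1, Atp5b, Atp5d, Atp5k and Uqcrc1 being lost in both. With the transcript length trend removed 5 were left, Uqcrfs1, Uqcrc2, Uqcrh, Cox7a1 and Cox6a2, and those of Uqcr10, Uqcr11, Atp5g1 and Atp5g3 were lost as well.

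**Figure D2:**
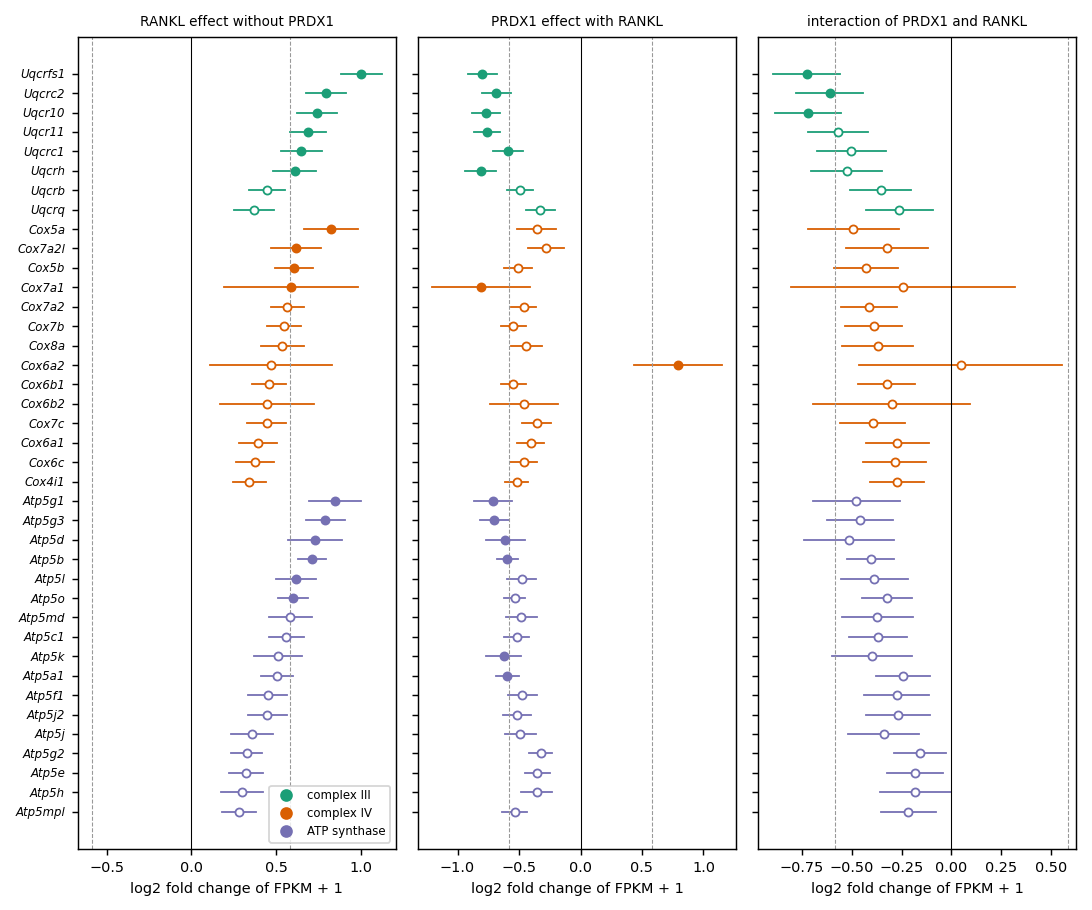
Log2 fold change of FPKM + 1 (horizontal axes) of each of the 39 members by RANKL without PRDX1, by PRDX1 with RANKL, and the interaction (the PRDX1 effect with RANKL minus that without); bars are 95% intervals of limma, filled points are called and dashed lines mark a fold of 1.5. All points lie right of 0 on the left, and Cox6a2, at 0.79, is the single member right of 0 in the middle.

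Promoters are shown for 4 called members, Uqcrfs1 for its large change and the others for the motifs they hold, to set the letters that known regulators of mitochondrial genes bind beside the values. Sequences are from RefSeq (GRCm38.p6), which held a promoter for 31 of the 39 members, and run from 250 bases before the annotated start to 50 after it. The motifs searched on both strands were those of NRF1 and YY1, and CCGGAAG (ETS factors such as GABPA), AAGGTCA (the receptor ERR), GGGCGG (SP1) and TGACGTCA (CRE). None of them holds another. Capitals mark matches to the NRF1, ETS and ERR letters. Uqcrfs1 is at chr13:30545267-30545566 (minus strand), Uqcrc1 at chr9:108936398-108936697 (plus), Atp5g3 at chr2:73911277-73911576 (minus) and Atp5k at chr5:108434350-108434649 (minus).
Uqcrfs1: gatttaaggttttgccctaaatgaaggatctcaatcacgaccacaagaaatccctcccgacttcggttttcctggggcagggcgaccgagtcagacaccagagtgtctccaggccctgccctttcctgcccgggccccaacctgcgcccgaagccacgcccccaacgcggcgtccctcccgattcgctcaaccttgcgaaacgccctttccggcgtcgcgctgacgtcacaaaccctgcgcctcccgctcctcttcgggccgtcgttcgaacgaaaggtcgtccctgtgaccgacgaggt
Uqcrc1: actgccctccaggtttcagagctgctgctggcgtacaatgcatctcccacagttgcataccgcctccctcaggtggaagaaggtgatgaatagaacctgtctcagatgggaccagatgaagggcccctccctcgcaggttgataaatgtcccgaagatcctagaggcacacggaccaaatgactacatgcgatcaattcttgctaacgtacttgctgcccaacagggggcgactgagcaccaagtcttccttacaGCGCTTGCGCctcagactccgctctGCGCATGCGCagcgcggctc
Atp5g3: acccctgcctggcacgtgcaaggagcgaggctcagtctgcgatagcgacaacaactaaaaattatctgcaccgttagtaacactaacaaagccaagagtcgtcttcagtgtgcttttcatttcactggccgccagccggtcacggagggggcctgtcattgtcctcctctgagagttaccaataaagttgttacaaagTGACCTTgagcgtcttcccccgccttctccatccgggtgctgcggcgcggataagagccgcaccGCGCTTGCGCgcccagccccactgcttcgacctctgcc
Atp5k: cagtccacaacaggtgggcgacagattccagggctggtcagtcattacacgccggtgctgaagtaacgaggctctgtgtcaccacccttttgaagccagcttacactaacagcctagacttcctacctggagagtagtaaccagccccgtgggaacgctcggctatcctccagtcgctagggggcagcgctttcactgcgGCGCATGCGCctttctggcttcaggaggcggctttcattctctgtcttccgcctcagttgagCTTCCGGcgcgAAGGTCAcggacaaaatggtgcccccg

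Uqcrfs1, with the largest RANKL effect on the log2(FPKM + 1) scale, held none of these 3 motifs in its window, and it was the 1 member with the CRE letters. Uqcrc1 held the NRF1 letters at 5 and 30 bases after the start, Atp5g3 at 12 bases after it with the ERR letters at -52, and Atp5k at -50, with the ETS letters at 12 and the ERR letters at 23. Over the 31 promoters, the NRF1 letters were in 7 (22.6%, against 11.3% of 9216 promoters of the same length), the ETS letters in 11 (35.5% against 20.2%) and the ERR letters in 4 (12.9% against 3.18%). The SP1 letters were in 10 (32.3% against 64.6%), the CRE letters in 1 (3.23% against 3.30%) and the YY1 letters in 0 (against 2.80%). A match describes the letters in the window and not a bound site.

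Complex III showed the largest median change of the 3 complexes in both comparisons. Uqcrfs1 (NM_025710, chr13:30540312-30545316, mm10, minus strand) encodes the Rieske iron-sulfur protein, the subunit that takes an electron from ubiquinol. It stood at 59.3 and 65.1 FPKM in the control libraries, 58.7 and 59.4 with PRDX1 alone, 128 and 123 with RANKL alone and 72.2 and 71.4 with both. RANKL alone raised it 2.02-fold by mean FPKM, with a log2 fold change of 1.003 ± 0.054 (SE; limma adjusted p = 1.37e-07), and PRDX1 under RANKL gave a log2 fold change of -0.80 ± 0.054 (SE; limma adjusted p = 2.01e-06). The libraries with both treatments lay above those with PRDX1 alone, with a log2 fold change of 0.28 ± 0.054 (SE; limma adjusted p = 0.00259), and also above the control libraries.

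The large core proteins Uqcrc1 (NM_025407, chr9:108936648-108949641) and Uqcrc2 (NM_025899, chr7:120635189-120659523) face the matrix. Uqcrc2 was measured at 65.9 and 64.0 FPKM in the control libraries, 62.5 and 60.6 with PRDX1 alone, 119 and 109 with RANKL alone and 71.2 and 69.2 with both. Uqcrc1 was measured at 84.7 and 92.6 FPKM in the control libraries, 82.1 and 84.5 with PRDX1 alone, 135 and 144 with RANKL alone and 92.7 and 91.8 with both. In both genes the libraries with RANKL alone stood clear of the other 6. The log2 fold changes by RANKL were 0.80 ± 0.053 for Uqcrc2 and 0.65 ± 0.055 for Uqcrc1, and by PRDX1 under RANKL -0.69 ± 0.053 and -0.59 ± 0.055 (SE; limma adjusted p at most 1.82e-05). Uqcrc1 was close to the fold threshold under PRDX1, and it was no longer called without no PRDX1 + RANKL replicate 2 (-0.54) or without PRDX1 + RANKL replicate 2 (-0.58).

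Among the small subunits, Uqcrh (NM_025641, chr4:116066965-116075070), the acidic hinge protein at the cytochrome c1 side, fell with PRDX1 under RANKL to 0.568 of its mean FPKM with RANKL alone. Its values were 156 and 146 FPKM in the control libraries, 128 and 119 with PRDX1 alone, 227 and 235 with RANKL alone and 136 and 126 with both, which is a log2 fold change of -0.81 ± 0.057 (SE; limma adjusted p = 2.47e-06). PRDX1 also lowered it without RANKL, by less than the fold threshold, with a log2 fold change of -0.29 ± 0.057 (SE; limma adjusted p = 0.00399). Uqcr10 (NM_197979, chr11:4701968-4704344) and Uqcr11 (NM_025650, chr10:80402997-80406821) encode the small transmembrane subunits that border the Rieske protein. For Uqcr10 the values were 116 and 123 FPKM in the control libraries, 111 and 121 with PRDX1 alone, 203 and 199 with RANKL alone and 118 and 117 with both. For Uqcr11 they were 120.2 and 118 FPKM in the control libraries, 100.1 and 108 with PRDX1 alone, 191 and 193 with RANKL alone and 112 and 114 with both. The PRDX1 effect under RANKL was -0.77 ± 0.052 in Uqcr10 and -0.76 ± 0.047 in Uqcr11 (SE; limma adjusted p = 2.08e-06 and 1.25e-06), and the libraries of Uqcr10 without RANKL overlapped with each other whether PRDX1 was given or not.

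Uqcrb and Uqcrq, small subunits near the ubiquinone site, moved least within the complex. The lowest member of complex III, Uqcrq, was at 57.0 and 54.3 FPKM in the control libraries, 51.9 and 54.3 with PRDX1 alone, 70.6 and 73.8 with RANKL alone and 58.9 and 55.8 with both. Its log2 fold change was 0.37 by RANKL and -0.33 by PRDX1 under RANKL, and that of Uqcrb 0.45 and -0.49, below the fold threshold in each case although all 4 had a limma adjusted p under 0.05.

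**Figure D3:**
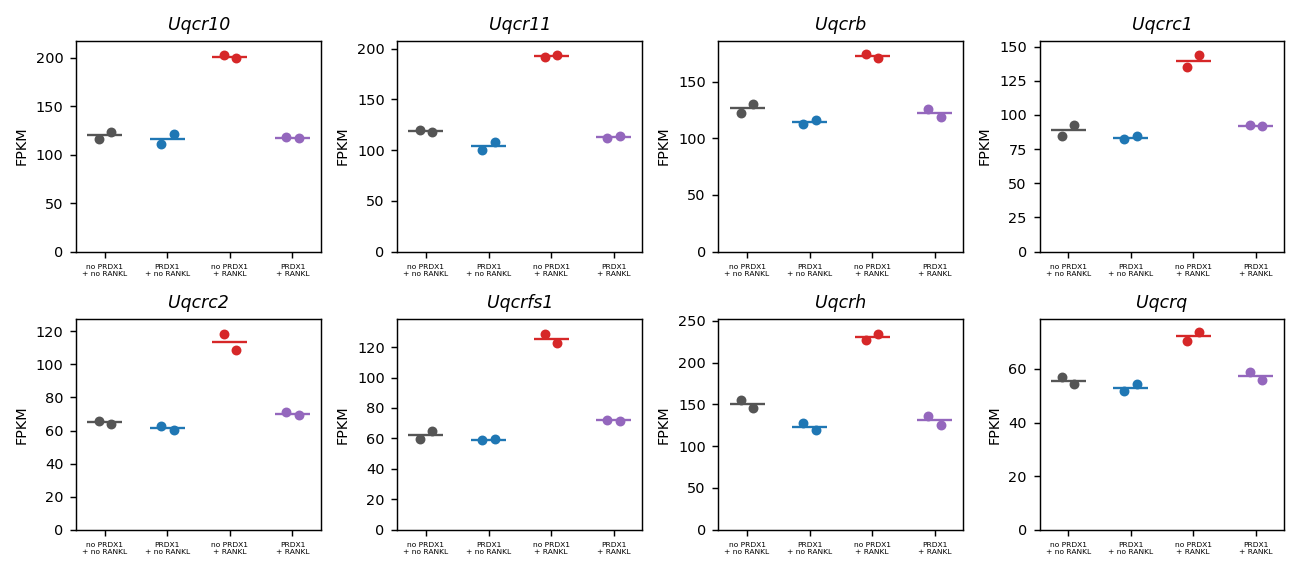
FPKM (vertical axes, from 0) of the 8 complex III members in the 4 groups; points are the 2 libraries of a group and lines their mean. In all 8 panels the libraries with RANKL alone stand above the other groups, from 70.6 and 73.8 FPKM in Uqcrq to 227 and 235 in Uqcrh.

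In the F1 head of the ATP synthase, Atp5b (NM_016774, chr10:128083307-128090388, plus strand) encodes the catalytic beta subunit and was the most abundant member by FPKM. It was found at 482 and 497 FPKM in the control libraries, 430.0 and 428 with PRDX1 alone, 796 and 807 with RANKL alone and 533 and 528 with both, which gave a log2 fold change of 0.71 ± 0.037 (SE; limma adjusted p = 1.13e-07) by RANKL and a log2 fold change of -0.59 ± 0.037 (SE; limma adjusted p = 1.24e-06) by PRDX1 under RANKL. Atp5a1, the alpha subunit that alternates with beta in the head, is added outside the naming rule after its values were seen. It was at 326 and 338 FPKM in the control libraries, 260.3 and 260.2 with PRDX1 alone, 459 and 486 with RANKL alone and 314 and 311 with both. This gene was called in the PRDX1 comparison under RANKL (-0.59) and not in the RANKL comparison (0.51); a difference between these was not tested. PRDX1 alone brought it to a log2 fold change of -0.35, below the fold threshold, with a limma adjusted p of 0.000206.

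Atp5d, the delta subunit of the central stalk, was at 136 and 140.3 FPKM in the control libraries, 129.6 and 128 with PRDX1 alone, 210.0 and 252 with RANKL alone and 150.1 and 150.0 with both. Its libraries with RANKL alone were further apart than those of other groups, and its fall by PRDX1 under RANKL (-0.61 ± 0.071, SE) was no longer called without no PRDX1 + RANKL replicate 2 (-0.48). Atp5a1 also fell short of the fold threshold without that library (-0.55). The gamma subunit Atp5c1 (0.56 by RANKL, -0.52 by PRDX1 under RANKL) and the epsilon subunit Atp5e (0.32 and -0.35) stayed below the fold threshold in both.

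The c-ring is the rotor of the enzyme, and 3 genes encode the same mature c subunit. Atp5g1 (NM_007506, chr11:96072793-96075694) was at 55.1 and 50.5 FPKM in the control libraries, 44.7 and 44.7 with PRDX1 alone, 90.8 and 101 with RANKL alone and 61.0 and 55.4 with both. Atp5g3 (NM_175015, chr2:73908447-73911326) was at 199 and 216 FPKM in the control libraries, 177 and 174 with PRDX1 alone, 347 and 373 with RANKL alone and 222 and 220.0 with both. Atp5g2 was at 138 and 139 FPKM in the control libraries, 125 and 122 with PRDX1 alone, 177 and 172 with RANKL alone and 139.9 and 139 with both. RANKL raised Atp5g1 by 0.85 and Atp5g3 by 0.79 (SE 0.069 and 0.052), and both fell by PRDX1 under RANKL, to -0.71 and -0.70. Atp5g2 moved by 0.33 and -0.33, below the fold threshold. Its share of the FPKM of the 3 genes was 34.8% ± 0.651 in control, 36.0% ± 0.122 with PRDX1 alone, 27.7% ± 1.55 with RANKL alone and 33.3% ± 0.291 with both (SD, n = 2), and that of Atp5g3 was 52.0% ± 1.78, 51.0% ± 0.0253, 57.1% ± 0.945 and 52.8% ± 0.436. Each library with RANKL alone had the lowest Atp5g2 share and the highest Atp5g3 share of the 8. These genes have related copies elsewhere in the genome, and how such reads were counted is not given in the sources used here.

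The peripheral stalk, which holds the head still against the rotor, had the smallest median RANKL effect of the parts of the enzyme (0.40). Of its 4 members, Atp5o (OSCP) was called higher with RANKL at 0.60, a call lost under both scalings, and 0 were called under PRDX1, where the range was -0.54 to -0.36. Atp5h, the d subunit, was at 176 and 173 FPKM in the control libraries, 147 and 162 with PRDX1 alone, 223 and 207 with RANKL alone and 168 and 167 with both. Atp5j, coupling factor F6, was at 162 and 152 FPKM in the control libraries, 145 and 138 with PRDX1 alone, 211 and 192 with RANKL alone and 141 and 146 with both, and its libraries with both treatments overlapped those with PRDX1 alone. Atp5f1, the b subunit, had log2 fold changes of 0.45 and -0.47 in the 2 comparisons.

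Among the small membrane subunits, which help the enzyme form dimers, Atp5k (NM_007507, chr5:108433246-108434399, subunit e) was at 139 and 120.3 FPKM in the control libraries, 108 and 113 with PRDX1 alone, 181 and 188 with RANKL alone and 119 and 119 with both. It was called lower by PRDX1 under RANKL at -0.62 ± 0.063 and missed the fold threshold by RANKL at 0.51 ± 0.063 (SE). Atp5l, subunit g, was at 216 and 218 FPKM in the control libraries, 203 and 203 with PRDX1 alone, 346 and 321 with RANKL alone and 249 and 229 with both and was called higher with RANKL (0.62), which was likewise lost under both scalings. Atp5mpl, a small proteolipid, had the smallest RANKL effect of all members, with 155 and 150.4 FPKM in the control libraries, 122 and 122 with PRDX1 alone, 191 and 181 with RANKL alone and 127 and 128 with both. Atp5j2 and Atp5md moved by 0.45 and 0.58 with RANKL and by -0.51 and -0.48 with PRDX1 under RANKL.

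Complex IV had the smallest median of the 3 complexes by PRDX1 under RANKL. By RANKL its median, which takes in the low isoforms, was 0.504 against 0.509 for the ATP synthase, too close to rank the 2. Cox4i1, the highest of the complex and a regulatory subunit that binds ATP, was at 397 and 409 FPKM in the control libraries, 349 and 330.2 with PRDX1 alone, 501 and 521 with RANKL alone and 356 and 355 with both, and its isoform Cox4i2, known from hypoxic lung, was at 0.188 and 0.565 in control, 0 and 0.511 with PRDX1 alone, 0 and 0 with RANKL alone and 0.15 and 0 with both. Cox5a (NM_007747, chr9:57521232-57532426) had the largest RANKL effect of the complex on the log2(FPKM + 1) scale, which weighs the low isoforms Cox6a2 and Cox6b2 down. It was at 146 and 154 FPKM in the control libraries, 154 and 177 with PRDX1 alone, 254 and 278 with RANKL alone and 201 and 214 with both, which is a log2 fold change of 0.82 ± 0.071 (SE; limma adjusted p = 4.68e-06). In contrast to most members it had higher means with PRDX1 than without it when RANKL was absent, though the libraries overlapped (log2 fold change 0.14, 95% interval -0.02 to 0.30). Its partner Cox5b, a zinc-binding subunit, was at 178 and 177 FPKM in the control libraries, 159.9 and 176 with PRDX1 alone, 266 and 276 with RANKL alone and 191 and 189 with both and was called with RANKL at 0.61, a call that was lost under both scalings named above and with the transcript length trend removed.

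Cox7a2l encodes SCAF1, which joins complexes III and IV in supercomplexes. It was at 108 and 94.4 FPKM in the control libraries, 106 and 103 with PRDX1 alone, 162 and 149.9 with RANKL alone and 126 and 129 with both. RANKL raised it by 0.62, and PRDX1 under RANKL had its smallest effect of all members here, -0.28 ± 0.065 (SE), and the libraries with both treatments lay above control. Cox7a2, the liver form of subunit VIIa, was at 95.6 and 96.5 FPKM in the control libraries, 94.1 and 91.5 with PRDX1 alone, 144 and 141 with RANKL alone and 101 and 106 with both. Cox7c, another small subunit, was at 184 and 176 FPKM in the control libraries, 189 and 179.9 with PRDX1 alone, 251 and 239 with RANKL alone and 184 and 198 with both. Its PRDX1 effect was 0.04 without RANKL, where the libraries overlapped, and -0.36 with RANKL.

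In the other abundant subunits the libraries with RANKL alone were also the highest. Cox6a1 was at 231 and 239.9 FPKM in the control libraries, 215 and 214 with PRDX1 alone, 295 and 325 with RANKL alone and 235 and 232 with both. Cox6b1, which faces cytochrome c, was at 316 and 292 FPKM in the control libraries, 261 and 259.7 with PRDX1 alone, 416 and 420.2 with RANKL alone and 289 and 284 with both. Both lay lower with PRDX1 alone than in control. Cox7b was at 199.7 and 189 FPKM in the control libraries, 173 and 176 with PRDX1 alone, 284 and 285 with RANKL alone and 199.5 and 189 with both. Cox8a, a small subunit, was at 254 and 243 FPKM in the control libraries, 225 and 249 with PRDX1 alone, 359.7 and 363 with RANKL alone and 275 and 257 with both. Cox6a1, Cox6b1, Cox7b, Cox8a and Cox6c had log2 fold changes of 0.38 to 0.55 by RANKL and -0.55 to -0.41 by PRDX1 under RANKL, below the fold threshold.

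The tissue-restricted isoforms were at low levels and behaved apart from each other. Cox6a2 (NM_009943, chr7:128205435-128206366), the heart and muscle form of subunit VIa, went against the other members in its PRDX1 effect under RANKL. It was at 0.0520 and 0.403 FPKM in the control libraries, 1.07 and 0.996 with PRDX1 alone, 0.504 and 0.885 with RANKL alone and 1.72 and 2.12 with both, from 1 and 11 reads in the control libraries to 52 and 58 with both treatments. It was called higher by PRDX1 without RANKL, with a log2 fold change of 0.74 ± 0.16 (SE; limma adjusted p = 0.00641), and with RANKL, with a log2 fold change of 0.79 ± 0.16 (SE; limma adjusted p = 0.00293). Without no PRDX1 + no RANKL replicate 1, the library with 1 read, the first of these calls was lost (0.54). Even at its highest it made up 0.816% ± 0.125 (SD, n = 2) of the FPKM of the Cox6a pair. Its transcript shares 70 bases of exon with Itgad on the other strand, and reads were counted without regard to strand. Itgad was at 0 to 0.0280 FPKM over the libraries, and its part in the values of Cox6a2 was not tested.

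Cox7a1 (NM_009944, chr7:30184171-30186030), the heart form of subunit VIIa, was at 2.63 and 3.72 FPKM in the control libraries, 1.86 and 1.73 with PRDX1 alone, 6.62 and 4.10 with RANKL alone and 2.47 and 2.65 with both. It was called higher with RANKL (0.59 ± 0.177, limma adjusted p = 0.0154) and lower with PRDX1 under RANKL (-0.81 ± 0.177, limma adjusted p = 0.00447; SE). Without no PRDX1 + RANKL replicate 1, which had 65 reads, both calls were lost, at 0.30 and -0.52, and the RANKL call was also lost without no PRDX1 + no RANKL replicate 1 (0.40). Cox6b2, the testis form of subunit VIb, was the lowest member, at 0.617 and 0.788 FPKM in the control libraries, 0.583 and 0.466 with PRDX1 alone, 1.54 and 1.11 with RANKL alone and 0.634 and 0.741 with both, with 9 to 23 reads in a library. It rose with RANKL (0.45) and fell with PRDX1 under RANKL (-0.46) at a limma adjusted p of 0.0108 and 0.014, below the fold threshold.

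**Figure D4:**
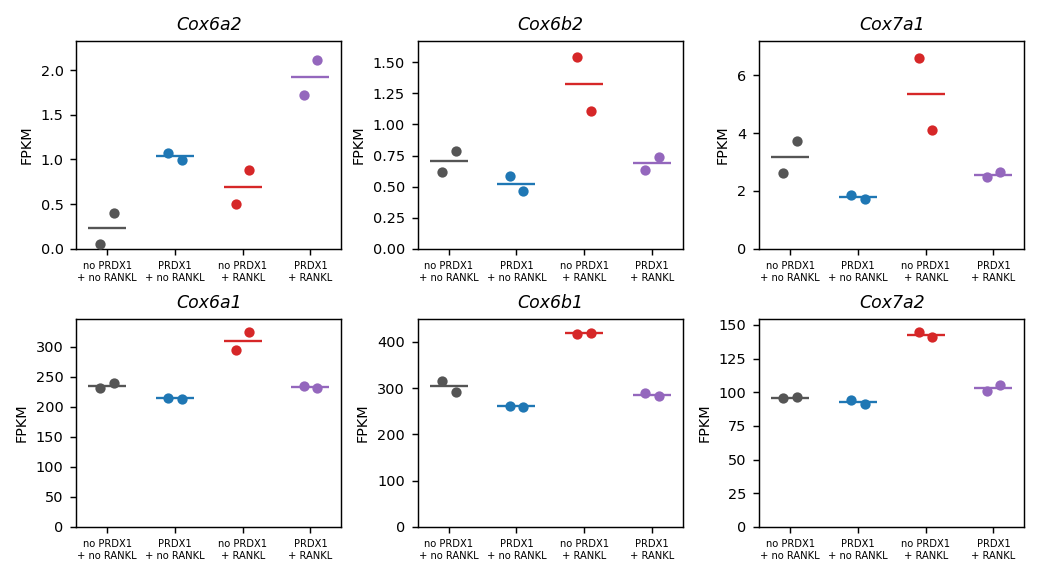
FPKM (vertical axes, from 0, with a scale of their own) of the tissue-restricted isoforms Cox6a2, Cox6b2 and Cox7a1 above and of their common counterparts Cox6a1, Cox6b1 and Cox7a2 below; points are the 2 libraries of a group and lines their mean. Cox6a2 is highest with both treatments (1.72 and 2.12 FPKM), whereas the other 5 are highest with RANKL alone.

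The median effect of PRDX1 was smaller without RANKL. Of the 39 members 35 were lower and 4 higher, with a median of -0.16 against -0.04 over all genes. Called genes were 0 lower, where 1.99% of all genes were called lower, and Cox6a2 higher, where 3.8% were. Beside that 0, 20 members fell at a limma adjusted p under 0.05 with no fold threshold, against 17.6% of all genes, and 24 of 39 had an unadjusted p under 0.05. Members that passed at any fold, 21 with Cox6a2, were 11 without no PRDX1 + no RANKL replicate 1, 11 and 13 without either library of PRDX1 alone, and 11 with no intensity trend. The 20 were 13 of 17 members of the ATP synthase, 5 of complex IV and 2 of complex III, and 31 had both PRDX1 libraries below both control libraries, against 39.7% of all genes, and 1 had them above (26.1%). Cox7a1 (-0.57), Atp5a1 (-0.35), Atp5mpl (-0.32) and Uqcrh (-0.29) were among those that fell. Leaving out 1 library moved Cox7a1, with 21 to 65 reads a library, between -0.76 and -0.38, the latter without no PRDX1 + no RANKL replicate 2.

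The median RANKL effect was smaller when PRDX1 was present. All 39 were above 0, with a median of 0.17 against 0.07 over all genes and a range of 0.02 to 0.52. Called genes were 0, where 4.52% of all genes were called higher and 3.98% lower. By the same test 26 members had an unadjusted p under 0.05, and 23 had a limma adjusted p under 0.05 at any fold, where 26.2% of all genes did. That count was 11 under upper quartile scaling, 9 with the transcript length trend removed, 14 with no intensity trend, and 11 to 15 without any 1 of the 4 PRDX1 libraries. In 35 members both libraries lay above both with PRDX1 alone (47.3% of all genes). The changes were highest for Cox6a2 (0.52), Atp5g1 (0.37) and Cox7a1 (0.35, which did not pass at an adjusted p of 0.145). They were smallest for Atp5j (0.02, 95% interval -0.11 to 0.15) and Uqcr10 (0.02, 95% interval -0.09 to 0.14), whose direction turned under upper quartile scaling. With the transcript length trend removed the median of the members was 0.0998, and Atp5j, Atp5mpl, Cox7c and Uqcr10 were below 0.

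The difference between the 2 PRDX1 effects was tested as an interaction. It was below 0 in 38 of 39 members, with a median of -0.37 against -0.01 over all genes. Called lower were 3, where 4.35% of all genes were, all in complex III, and 0 higher, where 4.5% were. These were Uqcrfs1 (-0.73 ± 0.076, limma adjusted p = 0.000113), Uqcr10 (-0.72 ± 0.074, limma adjusted p = 9.72e-05) and Uqcrc2 (-0.61 ± 0.075, limma adjusted p = 0.00032; SE). With no fold threshold 33 passed, where 12% of all genes did. With the transcript length trend removed the median was -0.215, Uqcrfs1 was the 1 call left and 17 members passed at any fold. Uqcrc2 was also lost under quantile normalization and without no PRDX1 + RANKL replicate 1. In the main fit, the 6 that did not pass at any fold were Atp5e, Atp5g2, Atp5h, Cox6a2, Cox6b2 and Cox7a1. For Cox6a2 the interaction was 0.05 (95% interval -0.46 to 0.55), so the PRDX1 effect with RANKL was neither shown to differ from that without it nor to equal it.

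Short transcripts in general moved the same way as the members, many of which are short. Of the 39, 20 have a transcript of at most 600 bases. Among other genes of that length, 496 in number, the median log2 fold change was 0.27 by RANKL and -0.18 by PRDX1 under RANKL, against 0.45 and -0.49 for the 20 members. From over 600 to 1200 bases it was 0.15 and -0.17 in 1220 other genes and 0.58 and -0.52 in 12 members, and from over 1200 to 2400 bases 0.12 and -0.08 in 3433 other genes and 0.68 and -0.59 in 6 members. Above 2400 bases it was 0.06 and -0.03 in 6512 other genes, and Atp5a1, the 1 member, had 0.51 and -0.59. In each class the median of the members was further from 0 than that of the other genes. With the trend on transcript length removed within each library, the medians of the 39 members were 0.33 by RANKL and -0.32 by PRDX1 under RANKL, and 5 members were called in each comparison. The share of all genes called was taken in the main fit only, so these counts have no share beside them.

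**Figure D5:**
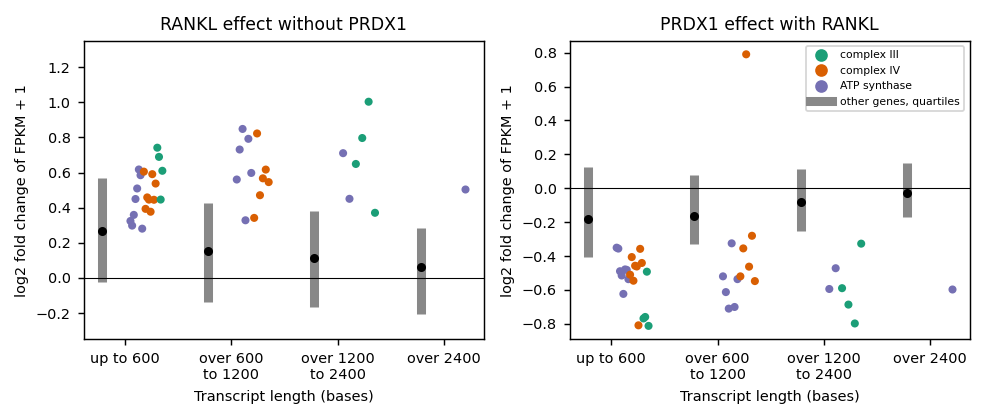
Log2 fold change of FPKM + 1 (vertical axes) by RANKL without PRDX1 and by PRDX1 with RANKL, in 4 classes of transcript length; grey bars span the quartiles of the other genes, black points are their median, and coloured points are the members. Other genes of at most 600 bases have a median of 0.27 by RANKL, and the longest class 0.06; the 20 members of at most 600 bases have a median of 0.45.

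Other genes of the pathway were taken from lists of the factors that build, feed or regulate these complexes. Cyc1, the cytochrome c1 subunit of complex III, whose symbol lies outside the rule, was at 62.7 and 66.2 FPKM in the control libraries, 69.8 and 62.6 with PRDX1 alone, 137 and 138 with RANKL alone and 79.3 and 80.8 with both, with a log2 fold change of 1.08 ± 0.057 (SE; limma adjusted p = 1.29e-07) by RANKL and a log2 fold change of -0.77 ± 0.057 (SE; limma adjusted p = 3.98e-06) by PRDX1 under RANKL. The counts that follow stand beside 11.8% of all genes called higher with RANKL and 4.17% called lower with PRDX1 under RANKL, and several are near those shares. Of 7 tested genes for complex III assembly, cytochrome c1 and cytochrome c, 3 were called higher with RANKL (Cyc1, Cycs and Uqcc1) and 1 lower with PRDX1 under RANKL (Cyc1). Of 27 complex IV assembly factors and further subunits, 4 were called higher (Cox17, the copper chaperone, at 0.81; Cox15 and Cox10, which make heme A, at 0.71 and 0.70; and Sco1 at 0.59), and 1 lower (Ndufa4 at -0.70). Of 6 assembly and inhibitor genes of the ATP synthase, 0 were called in either, while 4 passed higher at any fold with RANKL, where 37% of all genes did, and 5 lower with PRDX1 under RANKL, where 25.6% did.

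Upstream in the chain, 8 of 36 complex I subunits were called higher with RANKL (11.8% of all genes) and 4 lower with PRDX1 under RANKL (4.17% of all genes), with medians of 0.44 and -0.44. The 4 largest rises were Ndufv1 (0.86), Ndufab1 (0.76), Ndufb5 (0.67) and Ndufs1 (0.67), and the 4 falls Ndufs8 (-0.70), Ndufv1 (-0.69), Ndufb5 (-0.68) and Ndufs1 (-0.66). Of 8 complex II genes, 5 were called higher and 4 lower. Sdhd rose by 0.83, Sdha by 0.80, Sdhaf1 by 0.75 and Sdhb by 0.68, and the same 4 genes were called lower with PRDX1 at -0.68, -0.69, -0.64 and -0.70. Of 12 genes for cristae and cardiolipin, 3 were called higher (Phb2 at 0.89, Micos13 at 0.64 and Phb at 0.64) and 1 lower (Micos13 at -0.68).

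Downstream, where ATP leaves the matrix and phosphate enters, Slc25a5 was called higher with RANKL and lower with PRDX1 under RANKL, as was Ckmt1, of 7 tested genes. Ckmt1 passed the filter only through the group where it was high, so its calls are no support. Slc25a5, an ADP/ATP carrier, was at 332 and 339 FPKM in the control libraries, 286 and 282 with PRDX1 alone, 578 and 573 with RANKL alone and 366 and 359.9 with both. Ckmt1, the mitochondrial creatine kinase, had 0 reads in the 4 libraries without RANKL, 102 and 153 reads with RANKL alone (2.48 and 2.94 FPKM) and 2 and 4 reads with both (0.0290 and 0.0630 FPKM). No fold is given for it against the groups at 0.

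Of 12 tested regulators of mitochondrial genes, 2 were called higher with RANKL (11.8% of all genes) and 1 lower with PRDX1 under RANKL (4.17% of all genes). Ppargc1b, a coactivator of mitochondrial gene transcription, was at 0.455 and 0.571 FPKM in the control libraries, 0.473 and 0.426 with PRDX1 alone, 3.03 and 3.35 with RANKL alone and 0.974 and 0.936 with both, with a log2 fold change of 1.47 ± 0.102 (SE; limma adjusted p = 8.85e-07) by RANKL and a log2 fold change of -1.10 ± 0.102 (SE; limma adjusted p = 1.79e-05) by PRDX1 under RANKL. Myc was at 18.6 and 20.6 FPKM in the control libraries, 22.3 and 22.5 with PRDX1 alone, 41.5 and 43.9 with RANKL alone and 38.5 and 40.2 with both, and it was called higher with RANKL whether PRDX1 was absent (1.09) or present (0.78). Esrra, the nuclear receptor ERRα, was at 17.1 and 17.7 FPKM in the control libraries, 17.5 and 19.1 with PRDX1 alone, 26.0 and 27.1 with RANKL alone and 17.9 and 18.2 with both, and of the 12 regulators it and Ppargc1b had a called interaction, at -0.61 ± 0.087 and -1.04 ± 0.144 (SE; limma adjusted p = 0.000826 and 0.000653), where 4.35% of all genes were called lower. At any fold, 10 of the 12 regulators passed the test higher with RANKL alone, where 37% of all genes did. With PRDX1 and no RANKL, 0 genes of the lists of complexes I and II, assembly, transport, cristae and regulators were called by limma, where 3.8% of all genes were called higher and 1.99% lower. At an adjusted p under 0.05 with no fold threshold, those lower were 12 of 36 complex I subunits, 1 of 8 complex II genes, 1 of 7 of complex III assembly, 5 of 27 of complex IV assembly, 4 of 6 of ATP synthase assembly, 2 of 7 of ATP export, 6 of 12 cristae genes and 1 of 12 regulators, where 17.6% of all genes were. Those higher were 2 of complex IV assembly, 1 of cristae and 2 regulators, where 12.2% of all genes were. An unadjusted p under 0.05 in either direction was found for 14, 2, 1, 8, 4, 4, 7 and 3 genes, in the order of the lists above.

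Exons of 11 members share bases with another gene on the opposite strand in the GENCODE annotation, and reads were counted on both strands, so part of their reads may belong to the neighbour. The overlaps were 337 bases of Atp5f1 with Wdr77, 503 of Uqcrc2 with Pdzd9 and 356 of Atp5o with an antisense RNA, and 9 to 133 bases in Atp5md, Atp5j, Cox4i1, Cox6a2, Uqcrb, Atp5a1 and Atp5l. For Cox5a it was 269 bases, with a gene annotated as a bidirectional promoter RNA. Wdr77 did not exceed 20.3 FPKM and Gabpa, which shares 77 bases with Atp5j, 20.2 FPKM.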

How the data were processed

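The 8 RNA-seq libraries of OCP cells, 2 in each of 4 groups set by the labels, were analysed from 1 table. The authors deposited FPKM values for 25124 genes, counted with HOMER on exons of RefSeq transcripts of mm10 on both strands, 1 transcript per gene; the submitters' processing notes also name HISAT2 and DESeq2, with versions not given in the sources used here. The table held 0 other columns of per-sample values. FPKM, transcript length and an inferred library total gave whole reads (within 0.1 read) for 100% of genes checked, with library totals of 27284676 to 46171663. Read counts cover counting error only.

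log2(FPKM + 1) was fitted with limma 3.58.1 (R 4.3.3) as 1 model over all groups, with the prior variance following mean level. The fit took the 11700 genes averaging 0.5 FPKM or more, and p-values were adjusted by Benjamini-Hochberg over all of them. Calls needed an adjusted p under 0.05 and a fold of at least 1.5. Adding 1 FPKM understates the change of low genes. Replicates differed by more than counting noise (chi-square per degree of freedom 4.59 to 9.19). The steps were tested on simulated data with fewer changed genes, and larger changes, than most described here, so that test does not cover changes of the members' size. The members and lists were chosen with earlier results of these data known. Values in every library are given for members called (up to 12 in each comparison), isoform families, members against the median direction, the smallest changes, and the highest and lowest of each complex; up to 4 called genes are named per further list. Alternatives were other pseudocounts, filters, scalings, variance models, samples in the fit, transcript length, a replicate block and each library left out.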

Additional observations from a re-analysis of the deposited data

Results flagged for a closer look

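For 3 members the interaction passed both the test and the fold threshold, where 4.35% of all genes were called lower and 4.5% higher. The PRDX1 effect with RANKL minus that without was -0.73 for Uqcrfs1, -0.72 for Uqcr10 and -0.61 for Uqcrc2 on the log2 scale. For Uqcrfs1 the PRDX1 effect itself was -0.80 with RANKL and -0.07 without, for Uqcr10 -0.77 and -0.05, and for Uqcrc2 -0.69 and -0.08. Uqcrc2 was no longer called without no PRDX1 + RANKL replicate 1 (-0.55) or under quantile normalization. With the transcript length trend removed, Uqcr10 and Uqcrc2 were both lost and Uqcrfs1 was the 1 call left. The exons of Uqcrc2 share 503 bases with Pdzd9.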

How the results depend on the processing

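Called members by RANKL were 16 and became 9 under quantile normalization, 9 under upper quartile scaling, 5 with the transcript length trend removed and 39 with no fold threshold. By PRDX1 with RANKL they were 14 and became 9, 9, 5 and 39. Shares of all genes called were taken in the main fit only, so counts under other scalings or with the length trend removed have none beside them. By PRDX1 without RANKL the 1 call became 2 with a pseudocount of 0.1, 0 at a mean FPKM of at least 2 and 21 with no fold threshold; RANKL with PRDX1 gave 23 with no fold threshold, and the interaction 1 with the length trend removed and 33 with no fold threshold. At any fold, passing members by PRDX1 without RANKL were 11 with no intensity trend; by RANKL with PRDX1 11 under upper quartile scaling, 9 with the length trend removed and 14 with no intensity trend; and in the interaction 17 with the length trend removed. Leaving out each library gave 14 to 17, 1 to 1, 12 to 15, 0 to 1 and 3 to 5 called in the order RANKL, PRDX1, PRDX1 with RANKL, RANKL with PRDX1 and interaction, and 11 to 24 and 11 to 25 at any fold for PRDX1 without RANKL and RANKL with PRDX1. The low counts came without no PRDX1 + no RANKL replicate 1 (11) or either PRDX1 + no RANKL library (11 and 13) in the first, and without any of the 4 PRDX1 libraries (11 to 15) in the second. The single call of PRDX1 without RANKL was Cox7a1 in place of Cox6a2 without no PRDX1 + no RANKL replicate 1. For RANKL with PRDX1 the 1 was Cox6a2 without PRDX1 + RANKL replicate 1, and the 5 came without PRDX1 + no RANKL replicate 1. The causes were not tested.

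Some log2 fold changes turned direction, none of them of a called value. By PRDX1 without RANKL these were Cox7a2l -0.056 to 0.141 (1 library left out), Cox8a -0.144 to 0.00073 (1 library left out), and Uqcr10 -0.111 to 0.0133 (1 library left out). By RANKL with PRDX1 these were Atp5j -0.0348 (upper quartile scaling), -0.0498 (transcript length trend removed), -0.0158 to 0.0554 (1 library left out), Atp5mpl -0.0075 (transcript length trend removed), Cox7c -0.00447 (upper quartile scaling), -0.0207 (transcript length trend removed), -0.00285 to 0.103 (1 library left out), and Uqcr10 -0.0329 (upper quartile scaling), -0.0495 (transcript length trend removed), -0.0404 to 0.0837 (1 library left out). In the interaction these were Cox6a2 -0.655 (pseudocount 0.1), -0.998 (voom on recovered reads), -0.161 to 0.254 (1 library left out), and Cox7a1 -0.532 to 0.0466 (1 library left out). Replicates were not treated as paired. Differences between replicate 1 and replicate 2 had correlations of 0.00847 to 0.0965 between groups. The replicate numbers are those of the sample titles, and the table header numbers its read directories otherwise. The check and the block rest on the titles, so they cannot exclude a pairing under other numbers. With the replicate block the called counts were 16, 1, 14, 0 and 3, of the same genes. With voom on the recovered reads they were 18, 1, 14, 0 and 3. The 2 libraries per group and the depth of the 3 isoforms with few reads limit precision.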
